A study of Homo sapiens with 6 samples.

Results

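The genes described here are 10 amino acid transporters of the cell surface: SLC7A11, SLC7A5, SLC3A2, SLC1A4, SLC1A5, SLC38A1, SLC38A2, SLC7A1, SLC6A9 and SLC43A1. They were taken by exact symbol from the RNA-seq table, and all 10 were found, each at 1 of the 27678 loci that carry a symbol among 41656 loci in all. RNA-seq had been performed on MCF10A cells, a non-tumorigenic line of human breast epithelium, after depletion of the transcription factor PAX9. In 1 group the cells received a non-targeting siRNA control (siNT), and in the other siRNAs targeting PAX9 (siPAX9), in both cases at 30 nM for 72 hours. Each group held 3 samples of this single line, and all 6 shared the same growth medium with horse serum, epidermal growth factor and insulin. The comparison of siPAX9 with siNT shows which transporter mRNAs differed in level after PAX9 depletion.

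Cells take up amino acids through families of carrier proteins. Some are exchangers, which bring 1 amino acid in while another leaves, some move amino acids together with sodium ions, and some let them pass down their own gradient. Their supply feeds protein synthesis, glutathione and nucleotides, and the kinase complex mTORC1 is active when leucine, arginine and glutamine are plentiful. When amino acids are scarce, the kinase GCN2 (EIF2AK4) phosphorylates eIF2α, translation of the transcription factor ATF4 increases, and ATF4 drives many transporter and amino acid synthesis genes.

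Samples were pooled by the authors within each group, so that every gene has a single level per group, in FPKM. FPKM counts the fragments mapped to a gene, divided by the length of its transcript and by the size of the library, and levels can therefore be compared between genes. No value per sample and no read count per gene is given beside these levels, so no replicate error could be computed from them. The table's own test columns were not used here, the differences below carry no test, and a gene is singled out only by a fold of at least 2 between the group levels. PAX9 itself was at 2.80 FPKM in siNT and 0.325 FPKM in siPAX9, that is 11.6% of the siNT level. Of 8 genes listed as markers of basal breast epithelium, all 8 were detected in both groups, with KRT5 at 1558 and 1807 FPKM in siNT and siPAX9. Of the genes on this list, 1, the epithelial cadherin CDH1, was at least 2-fold higher in siPAX9 (45.3 and 124 FPKM), and TP63 was at 35.4 and 25.3 FPKM. Among 4 markers of luminal hormone-responding epithelium, FOXA1 was at least 2-fold higher in siPAX9 (1.10 and 2.86 FPKM) and GATA3 was at 6.19 and 7.56 FPKM. The hormone receptor gene ESR1 was at 0.056 FPKM in siNT and 0.317 FPKM in siPAX9, and PGR at 0.0013 FPKM and 0. The summed level of 5 fibroblast markers was higher in siPAX9, at 42.2 FPKM against 6.40 FPKM in siNT, through DCN (5.85 to 37.9 FPKM) and COL1A1 (0.454 to 4.13 FPKM), while COL1A2 was listed at 0 in siNT and 0.00337 in siPAX9 and PDGFRB at 0.0781 and 0.0637. The endothelial marker KDR was at 0.798 FPKM in siNT and 1.94 FPKM in siPAX9, with CDH5 listed at 0 in siNT and 0.0094 in siPAX9. The part of these markers in the differences below was not tested. In bulk samples such as these, fewer cells of a kind and less RNA per cell cannot be told apart.

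Of the 10 transporters, 3 were at least 2-fold lower in siPAX9: SLC43A1, SLC1A4 and SLC7A11. None was at least 2-fold higher. Among 12831 loci with a symbol, a level above 0 in both groups and at least 1 FPKM in the higher group, 6.89% were at least 2-fold lower and 7.26% at least 2-fold higher. SLC1A5 and SLC6A9 came next, with levels 1.88-fold and 1.51-fold lower in siPAX9. Another 4 genes, SLC3A2, SLC38A1, SLC38A2 and SLC7A1, differed by less than 1.2-fold between the groups, and SLC7A5 was 1.23-fold higher. Counting any difference, 9 of the 10 were lower, against 54.7% of the 12831 loci, but SLC3A2 and SLC38A1 were among the 9 by margins so small that they lay above 0 once the median of all loci was subtracted. The median log2 ratio of siPAX9 over siNT was -0.36 over the 10 genes and -0.06 over the 12831 loci. SLC1A4 and SLC43A1 reached 1 FPKM in siNT only, and over the 8 genes with at least 1 FPKM in both groups the median was -0.10 and 1 gene, SLC7A11, was at least 2-fold lower.

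**Figure D1:**
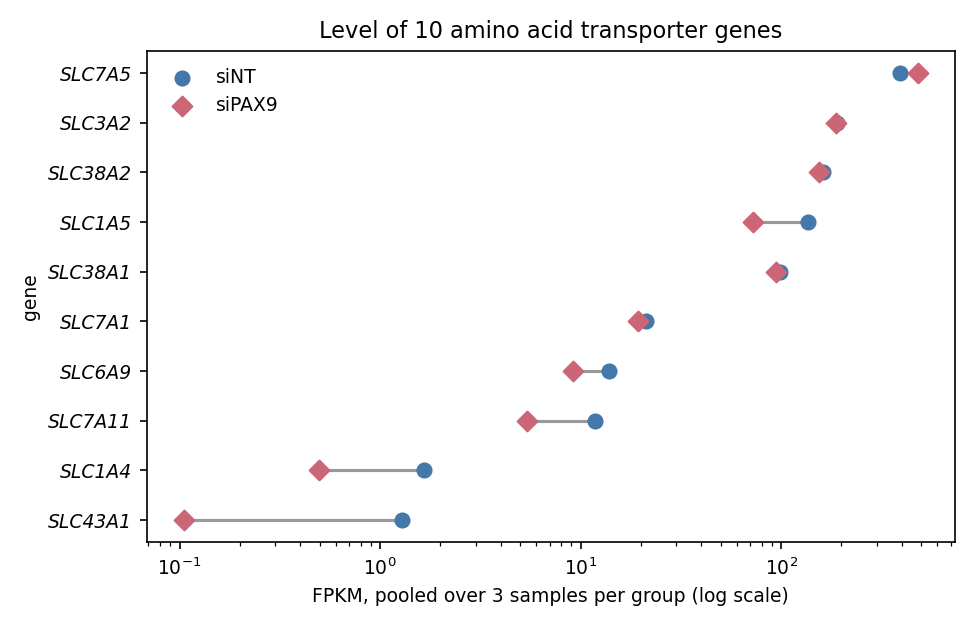
Level of the 10 transporter genes in siNT (circles) and siPAX9 (diamonds), in FPKM on a log axis, with 1 pooled value per gene and group and no error bars because no value per sample was given. SLC43A1, SLC1A4 and SLC7A11 at the bottom are at least 2-fold lower in siPAX9, while the markers of SLC3A2, SLC38A1 and SLC38A2 nearly coincide (SLC3A2 and SLC38A1 lie slightly higher in siPAX9 once centred on all loci).

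The genes spanned a wide range of levels, from 1.28 FPKM for SLC43A1 to 391 FPKM for SLC7A5 in siNT. The largest folds fell on the scarcest of them, and the largest differences in FPKM on the abundant SLC7A5 and SLC1A5. In siNT, SLC43A1 stood above only 7.89% of the 12831 loci in level, whereas SLC7A5 stood above 98.7%. Over the 10 genes, the rank correlation between the mean of both levels and the log2 ratio was 0.90 (Spearman's rho, n = 10 genes, a description across genes whose ratio and mean come from the same 2 levels). Over the 12831 loci the same correlation was -0.17. At a mean level below 3 FPKM, where SLC43A1 and SLC1A4 lie, 11.7% of loci were at least 2-fold lower and 19.7% at least 2-fold higher in siPAX9. At 3 to 10 FPKM, the class of SLC7A11, the shares were 6.95% and 6.20%.

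**Figure D2:**
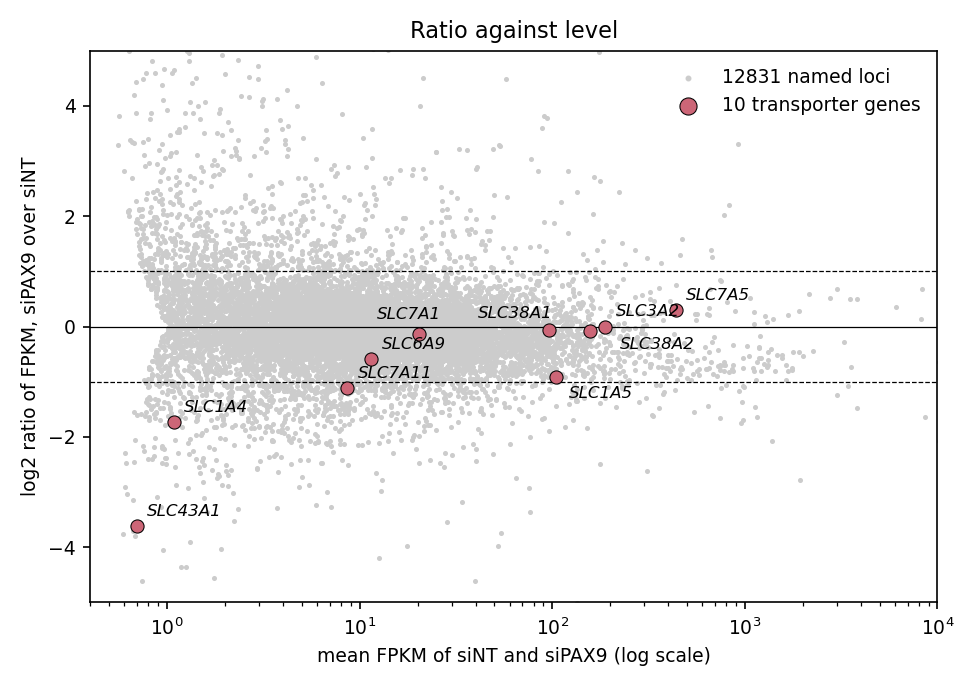
Log2 ratio of siPAX9 over siNT against the mean FPKM of both groups (log axis) for 12831 named loci (grey) and the 10 transporter genes (red), with dashed lines at a 2-fold difference, and 75 loci outside the axes. The transporter genes run from SLC43A1 and SLC1A4, scarce and lower in siPAX9, to SLC7A5, abundant and 1.23-fold higher (SLC3A2 and SLC38A1, just below 0 here, lie above 0 once centred on all loci).

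The summed level of the 10 genes was nearly equal, at 1027 FPKM in siNT and 1026 FPKM in siPAX9. Its composition shifted, with SLC7A5 higher by 90.4 FPKM in siPAX9 and the other 9 genes together lower. SLC7A5 made up 38.1% of the sum in siNT and 47.0% in siPAX9, and SLC1A5 made up 13.3% and 7.09%. Without SLC7A5, the other 9 genes summed to 635 FPKM in siNT and 544 FPKM in siPAX9. The rank order of the genes was the same in both groups, except that SLC1A5 went from the fourth place to the fifth and SLC38A1 from the fifth to the fourth.

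**Figure D3:**
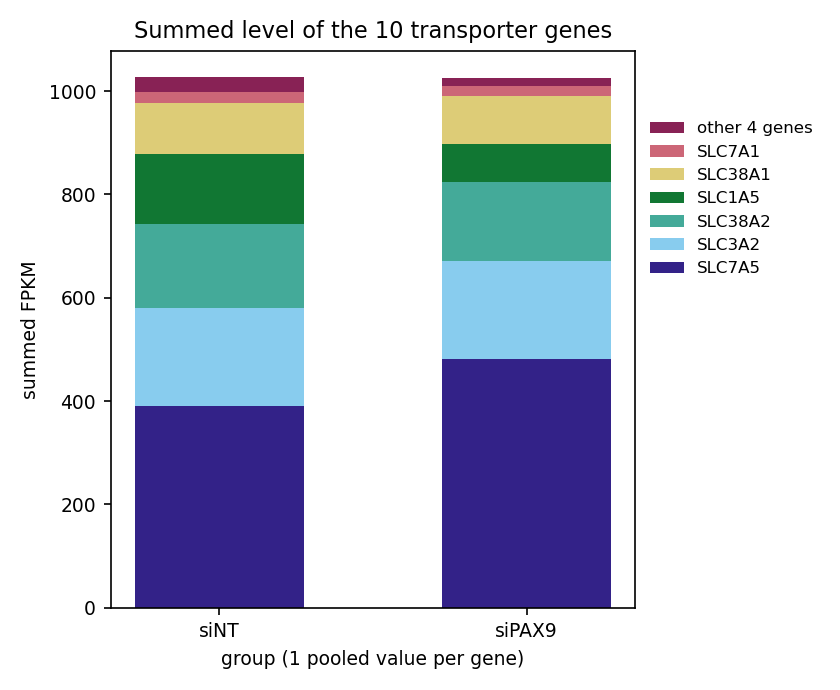
Summed FPKM of the 10 transporter genes in siNT and siPAX9, stacked by gene, with 1 pooled value per gene and group. The bars are of nearly the same height (1027 and 1026 FPKM), with a larger SLC7A5 segment and a smaller SLC1A5 segment in siPAX9.

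SLC3A2 encodes 4F2hc (CD98), the heavy chain that carries several light chains, SLC7A5 and SLC7A11 among them, to the plasma membrane. Its level was 189 FPKM in siNT and 188 FPKM in siPAX9. The log2 ratio was -0.00 as given, and 0.06 after subtraction of the median of all loci, so no direction can be read for SLC3A2. The locus lies at chr11:62623484-62656355 (hg19) on the plus strand, and its reference transcript has 9 exons. Its 5′ neighbour, SNHG1, a host gene of small nucleolar RNAs, was at 188 FPKM and 167 FPKM (chosen after its value was seen).

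SLC7A5 encodes LAT1, the light chain that exchanges leucine and other large neutral amino acids. It was the most abundant of the 10 genes in both groups, at 391 FPKM in siNT and 482 FPKM in siPAX9, and the only one whose level was higher in siPAX9 before centring. Its log2 ratio of 0.30 lay above that of 74.8% of the 12831 loci, close to their upper quartile of 0.30. Among loci with a mean level of 100 FPKM and above, where SLC7A5 lies, the median was -0.34 and the upper quartile 0.12. The locus is at chr16:87863629-87903100 (hg19), minus strand, with 10 exons in the reference transcript. Of the 75-base words in that transcript, 3.88% also occur in transcripts of other genes, on either strand. One of these genes is the pseudogene SLC7A5P2, whose level was 9.06 FPKM in siNT and 11.9 FPKM in siPAX9 (chosen after its value was seen). The reads of such stretches may be divided between the copies, though the words shared are few. The promoter of SLC7A5 is shown because this gene alone was higher in siPAX9, from 250 bases before to 50 bases after the transcript start at chr16:87903064-87903363 (hg19, minus strand), with an E-box (CACGTG) and the core of an antioxidant response element (TGACNNNGC) in capitals.
SLC7A5: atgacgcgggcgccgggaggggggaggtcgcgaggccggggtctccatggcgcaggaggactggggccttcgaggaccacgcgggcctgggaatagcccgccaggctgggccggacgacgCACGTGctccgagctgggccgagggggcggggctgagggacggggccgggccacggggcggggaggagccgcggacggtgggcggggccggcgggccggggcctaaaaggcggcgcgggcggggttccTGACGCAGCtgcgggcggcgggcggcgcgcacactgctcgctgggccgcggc

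SLC7A11 encodes xCT, the light chain that imports cystine in exchange for glutamate and so supplies cysteine for glutathione. Its level was 11.8 FPKM in siNT and 5.43 FPKM in siPAX9, 2.17-fold lower, with a log2 ratio of -1.12. Only 5.49% of the 12831 loci had a lower log2 ratio. With 1 FPKM added to both levels, the log2 ratio was -0.99, just short of 2-fold. The table places SLC7A11 at chr4:138948577-139163503 (hg19), an interval wider than the annotated gene (chr4:139085251-139163503, minus strand, 12 exons), and lists the antisense gene SLC7A11-AS1 at the same interval. SLC7A11-AS1 was at 0.648 FPKM in siNT and 0.231 FPKM in siPAX9 (chosen after its value was seen). Of the 75-base words of the SLC7A11 transcript, 7.57% also occur in transcripts of SLC7A11-AS1. No source used here states that strand was used in counting, so reads of the antisense RNA and of SLC7A11 cannot be told apart in those stretches.

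Both light chains depend on the same heavy chain, and their levels differed in opposite directions. SLC7A5 was 33.2 times as abundant as SLC7A11 in siNT and 88.7 times in siPAX9. Over the 6 light chain genes known to pair with SLC3A2 (SLC7A5, SLC7A6, SLC7A7, SLC7A8, SLC7A10 and SLC7A11), the summed level was 422 FPKM in siNT and 511 FPKM in siPAX9. The share of SLC7A11 in that sum was 2.79% and 1.06%, and that of SLC7A5 was 92.7% and 94.4%. With SLC3A2 in siPAX9 at 99.7% of its siNT level, the ratio of summed light chain to heavy chain levels was 2.23 in siNT and 2.71 in siPAX9.

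SLC1A4 and SLC1A5 encode ASCT1 and ASCT2, sodium-dependent exchangers of alanine, serine and cysteine, of which ASCT2 also carries glutamine. The scarce gene of the pair, SLC1A4, was at 1.66 FPKM in siNT and 0.499 FPKM in siPAX9, 3.34-fold lower with a log2 ratio of -1.74. Only 1.82% of the 12831 loci had a lower ratio. With 1 FPKM added to both levels the log2 ratio of SLC1A4 was -0.83, within 2-fold. The abundant gene, SLC1A5, was at 136 FPKM in siNT and 72.7 FPKM in siPAX9, 1.88-fold lower with a log2 ratio of -0.91, and 8.21% of the loci had a lower ratio. In absolute terms SLC1A5 differed the most of the 9 genes that were lower, its level having decreased by 63.7 FPKM. The pair summed to 138 FPKM in siNT and 73.2 FPKM in siPAX9, and SLC1A5 was 82.0 times as abundant as SLC1A4 in siNT and 145.9 times in siPAX9. At mean levels of 100 FPKM and above, where SLC1A5 lies with SLC7A5, SLC3A2 and SLC38A2, 10.3% of 593 loci were at least 2-fold lower in siPAX9 and their median log2 ratio was -0.34.

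SLC1A4 lies at chr2:65215579-65251000 (hg19, plus strand, 8 exons) and shared no 75-base word with transcripts of other genes. SLC1A5 lies at chr19:47278140-47291842 (hg19, minus strand, 8 exons), and 25.1% of the words of its transcript occur in an annotated long noncoding RNA on the opposite strand. The difference between the groups at SLC1A5 cannot be assigned to one strand in that stretch. A promoter window of each gene is shown because both genes were lower in siPAX9 and both windows hold the core of the amino acid response element to which ATF4 binds with C/EBP proteins (TGATGNAA on either strand, in capitals). That of SLC1A4 is at chr2:65216283-65216582 (hg19, plus strand), the second of its 2 starts in the table, and that of SLC1A5 at chr19:47288022-47288321 (hg19, minus strand), the third of its 3 starts and inside the gene. SLC3A2, SLC38A1 and SLC7A1 hold the core as well and differed by less than 1.2-fold. The part of the core in these levels was not tested.
SLC1A4: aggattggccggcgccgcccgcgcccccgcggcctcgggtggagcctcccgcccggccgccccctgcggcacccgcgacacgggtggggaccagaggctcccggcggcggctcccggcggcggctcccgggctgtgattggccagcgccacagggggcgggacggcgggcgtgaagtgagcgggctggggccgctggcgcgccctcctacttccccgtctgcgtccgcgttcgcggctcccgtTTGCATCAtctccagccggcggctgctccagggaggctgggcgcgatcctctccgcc
SLC1A5: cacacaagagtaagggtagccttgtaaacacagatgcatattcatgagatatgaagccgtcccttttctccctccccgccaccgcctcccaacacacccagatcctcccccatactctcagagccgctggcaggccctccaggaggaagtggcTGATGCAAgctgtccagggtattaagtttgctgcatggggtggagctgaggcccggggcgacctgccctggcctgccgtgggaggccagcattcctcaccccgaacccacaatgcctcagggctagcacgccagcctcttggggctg

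SLC38A1 and SLC38A2 encode SNAT1 and SNAT2, which bring glutamine, alanine and other small neutral amino acids in together with sodium. SLC38A2 is known for its induction when amino acids are withdrawn. SLC38A1 was at 98.3 FPKM in siNT and 94.1 FPKM in siPAX9. SLC38A2 was at 162 FPKM and 154 FPKM. The log2 ratios of SLC38A1 and SLC38A2, -0.06 and -0.07, were near the median of all loci, and after its subtraction they were 0.00035 and -0.01, so that SLC38A1 has no direction of its own. The ratio of SLC38A2 to SLC38A1 was 1.65 in siNT and 1.64 in siPAX9. Both genes lie on chromosome 12, at chr12:46576840-46663208 and chr12:46751963-46766645 (hg19, both on the minus strand, with 17 and 16 exons). Of the sodium-dependent glutamine carriers among the 10 genes, SLC1A5 was thus lower while SLC38A1 and SLC38A2 differed by less than 1.2-fold (SLC38A1 with no direction once centred).

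SLC7A1 encodes CAT1, a carrier of arginine, lysine and ornithine that needs no heavy chain. Its level was 21.3 FPKM in siNT and 19.4 FPKM in siPAX9, a log2 ratio of -0.13, and 44.3% of the loci had a lower one. It lies at chr13:30083551-30169825 (hg19, minus strand, 13 exons). Together with SLC7A2 and SLC7A3, the cationic carriers summed to 43.7 FPKM in siNT and 37.3 FPKM in siPAX9, with SLC7A3 listed at 0 in both groups. SLC6A9 encodes GlyT1, which takes up glycine with sodium and chloride. Its level was 13.8 FPKM in siNT and 9.15 FPKM in siPAX9, a log2 ratio of -0.59 and 66.2% of the siNT level. SLC6A9 lies at chr1:44457280-44497164 (hg19, minus strand, 14 exons), and the gene CCDC24 on the opposite strand overlaps the interval.

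SLC43A1 encodes LAT3, a facilitator that lets leucine and other branched-chain and aromatic amino acids pass without exchange or sodium. It showed the largest fold of the 10 genes, from 1.28 FPKM in siNT to 0.105 FPKM in siPAX9. This is 12.3-fold lower, a log2 ratio of -3.62, and only 0.187% of the 12831 loci had a lower one. The gene was scarce in both groups, so that its part of the summed level of the 10 genes was 0.125% in siNT, and the precision of a level of 0.105 FPKM is unknown. With 1 FPKM added to both levels, the log2 ratio of SLC43A1 was -1.05. It lies at chr11:57252004-57283192 (hg19, minus strand, 15 exons). The related gene SLC43A3, on the same chromosome at chr11:57174424-57195053, was at 81.3 FPKM in siNT and 31.3 FPKM in siPAX9, a log2 ratio of -1.38 (chosen after its value was seen). SLC43A2, the family member among the other listed surface transporters, was within 2-fold. Its levels were 8.44 FPKM in siNT and 5.86 FPKM in siPAX9, a log2 ratio of -0.53 (chosen after its value was seen). The SLC43A1 promoter is shown for comparison with those above, since the gene with the largest fold holds an E-box (in capitals) and no amino acid response element core in either of its windows. It covers chr11:57283126-57283425 (hg19, minus strand).
SLC43A1: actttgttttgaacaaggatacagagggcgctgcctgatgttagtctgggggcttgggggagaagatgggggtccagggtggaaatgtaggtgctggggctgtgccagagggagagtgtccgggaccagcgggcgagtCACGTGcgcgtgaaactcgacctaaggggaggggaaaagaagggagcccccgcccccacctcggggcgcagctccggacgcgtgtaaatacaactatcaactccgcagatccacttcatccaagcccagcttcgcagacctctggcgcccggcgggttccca

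Promoter windows of 300 bases came from RefSeq (GRCh38.p14) and were placed on hg19 by an exact match of the whole sequence, which each window had once. They covered 9 of the 10 genes (all except SLC7A11) with 16 windows, since some genes have several starts. The core TGATGNAA was present in 5 of the 16 windows and in 5 of the 9 genes, SLC3A2, SLC1A4, SLC1A5, SLC38A1 and SLC7A1. It was held by 3.62% of all 35116 windows and by 4.46% of all 27305 genes, and by 2.67% of the 9681 genes with a window that are among the 12831 loci. The matches with 20 bases on either side (fewer where the window ends) are given here 5′ to 3′ on the strand of the gene, with the core in capitals, because they show which form each gene carries. They lie at chr11:62649188-62649220 for SLC3A2, chr2:65216506-65216553 for SLC1A4, chr19:47288141-47288188 for SLC1A5, chr12:46660276-46660323 for SLC38A1 and chr13:30169791-30169838 for SLC7A1 (hg19).
SLC3A2: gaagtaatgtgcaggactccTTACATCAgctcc
SLC1A4: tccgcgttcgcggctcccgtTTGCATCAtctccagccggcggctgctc
SLC1A5: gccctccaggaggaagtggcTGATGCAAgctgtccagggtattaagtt
SLC38A1: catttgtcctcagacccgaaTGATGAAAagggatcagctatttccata
SLC7A1: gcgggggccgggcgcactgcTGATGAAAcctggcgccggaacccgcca

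SLC1A4 and SLC1A5 carry the form with C at the free base, SLC1A4 on the opposite strand, and this form was present in 0.866% of all windows. The 5 genes with a core were divided in their levels. SLC1A4 and SLC1A5 were 3.34-fold and 1.88-fold lower in siPAX9, whereas SLC3A2, SLC38A1 and SLC7A1 differed by less than 1.2-fold. SLC43A1 and SLC6A9, which were lower as well, had no match. The antioxidant response core TGACNNNGC was present in 4 of the 9 genes (SLC7A5, SLC3A2, SLC1A5 and SLC7A1), against 16.1% of all genes and 19.3% of the genes among the 12831 loci, and the E-box in 3 (SLC7A5, SLC1A5 and SLC43A1), against 8.77% and 12.7%. GCGTGACCA and GCGGAACGG, which are among the sequences the study had searched for PAX9, were present in none of the 16 windows, against 0.157% and 0.225% of all windows. The study's other PAX9 sequences were not searched here. A match is a run of letters and not a measured binding site, and genes with several windows have more chances of one.

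**Figure D4:**
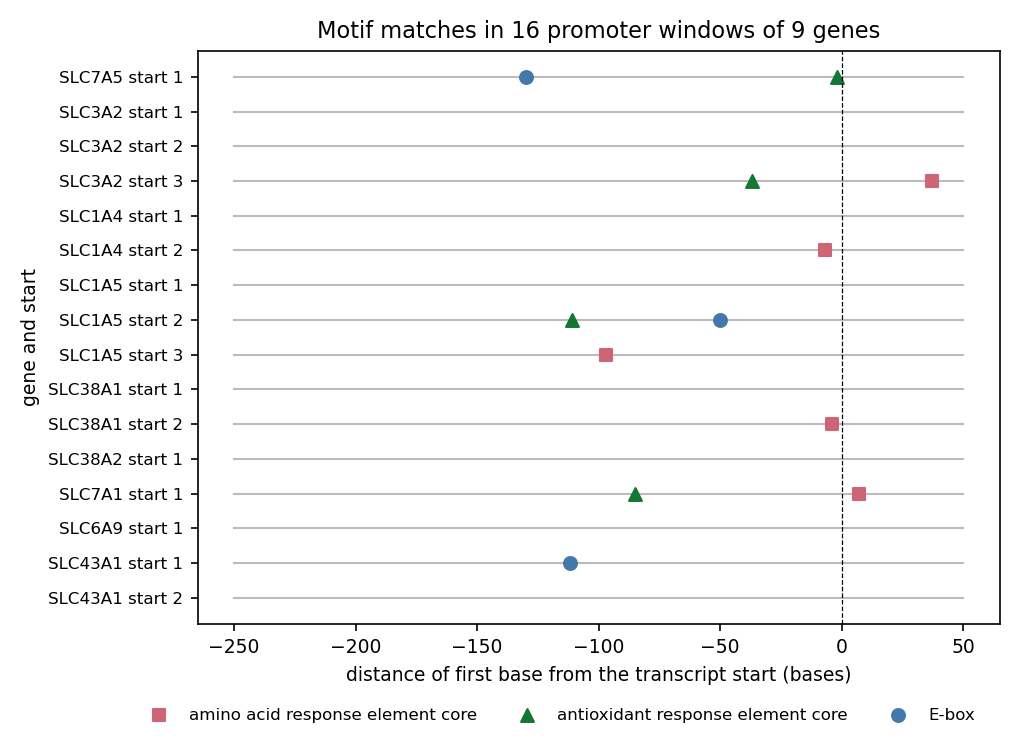
Position of motif matches in the 16 promoter windows of 9 transporter genes, as the distance in bases of the first base of the match from the transcript start (dashed line); grey lines span each window. Squares mark the amino acid response element core (5 windows), triangles the antioxidant response element core (4 windows) and circles the E-box (3 windows), and SLC7A1, SLC38A1 and SLC1A4 have their squares within 10 bases of the start.

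Other amino acid transporters of the cell surface were compared with the 10 genes. Of 34 listed, 24 were below 1 FPKM in both groups, and 10 could be counted, of which 1 was at least 2-fold lower and 1 at least 2-fold higher in siPAX9, with a median log2 ratio of -0.29. Each of these reached 1 FPKM in 1 group only, and with at least 1 FPKM required in both groups the counts were 0 and 0. Over the 12831 loci, 6.89% were at least 2-fold lower and 7.26% at least 2-fold higher. SLC1A1, a glutamate and cystine carrier of the same family as SLC1A4 and SLC1A5, was at 1.73 FPKM in siNT and 0.704 FPKM in siPAX9 (log2 ratio -1.30). SLC6A14, a sodium- and chloride-coupled carrier of neutral and cationic amino acids, was at 0.213 FPKM in siNT and 9.08 FPKM in siPAX9 (log2 ratio 5.41). Its level in siPAX9 was thus close to that of SLC6A9 in the same cells, 9.15 FPKM, while it had been far below SLC6A9 in siNT.

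Genes that make or use the amino acids carried by these transporters were described next. Of 7 enzymes of serine, glycine and proline synthesis, 4 were at least 2-fold lower in siPAX9 and none at least 2-fold higher, with a median log2 ratio of -1.63. The shares over the 12831 loci were 6.89% and 7.26%. PHGDH, the first enzyme of serine synthesis, was at 45.5 FPKM in siNT and 1.20 FPKM in siPAX9 (log2 ratio -5.24). PSAT1, the second enzyme of that pathway, was at 98.4 and 22.6 FPKM, SHMT2, which makes glycine from serine in mitochondria, at 151 and 41.0 FPKM, and PYCR1, of proline synthesis, at 18.1 and 5.86 FPKM.

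Of the 4 enzymes of glutamine and asparagine, asparagine synthetase (ASNS) was at least 2-fold lower, at 44.4 FPKM in siNT and 7.98 FPKM in siPAX9, and the median log2 ratio was -0.41. Among the 7 genes of cysteine and glutathione metabolism, 2 were at least 2-fold lower and the median was -0.26. These were CBS, of the route from methionine to cysteine (2.94 and 0.287 FPKM, in a row shared with its near-identical copy CBSL), and CHAC1, which degrades glutathione (8.60 and 1.14 FPKM). CBS reached 1 FPKM in siNT only. Of the 4 counted enzymes of arginine and polyamine metabolism, ARG2 (6.97 and 2.61 FPKM) and the polyamine enzyme ODC1 (113 and 43.9 FPKM) were at least 2-fold lower, and the median was -0.90. Beside the counts of these small lists, the share of the 12831 loci at least 2-fold lower was 6.89%.

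Of 17 regulators of transcription and stress known to act on transporter genes, 2 were at least 2-fold lower in siPAX9, none at least 2-fold higher, and the median log2 ratio was 0.01. The shares over the 12831 loci were 6.89% lower and 7.26% higher by that fold. By any amount, 8 of the 17 were lower and 9 higher. Those higher included ATF3 (log2 ratio 0.76), PPP1R15A (0.47) and ATF5 (0.39), named after their values were seen. ATF4 was at 404 FPKM in siNT and 157 FPKM in siPAX9 (log2 ratio -1.37), and its target TRIB3 at 65.8 and 14.1 FPKM (log2 ratio -2.22). These are mRNA levels, and ATF4 is regulated mainly in translation. NFE2L2, which encodes the activator NRF2 of the antioxidant response and of SLC7A11, was at 67.8 FPKM and 63.9 FPKM (log2 ratio -0.08), and MYC, a known activator of SLC1A5 and SLC7A5, at 394 and 248 FPKM (log2 ratio -0.67). Both were within 2-fold and were chosen after their values were seen.

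**Figure D5:**
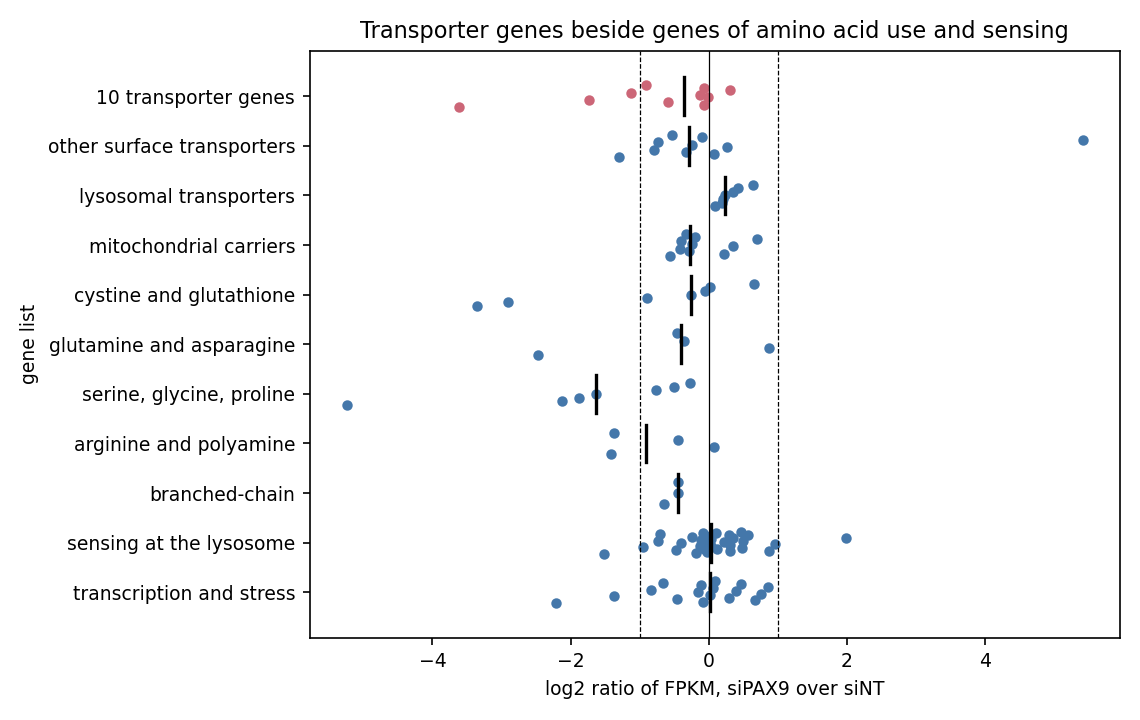
Log2 ratio of siPAX9 over siNT for the 10 transporter genes (red) and for the counted genes of 10 other lists of amino acid transport, use and sensing (blue), 1 point per gene, with the median of each list as a vertical bar and dashed lines at a 2-fold difference. The 10 transporter genes (median -0.36) lie between the serine, glycine and proline synthesis enzymes (median -1.63) and the lysosomal transporters (median 0.23), with SLC3A2 and SLC38A1 just below 0 here and above 0 once centred on all loci.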

How the data were processed

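PolyA+ RNA of 6 MCF10A samples, 3 per group, had been sequenced as single-end reads. According to the study's methods and the submitters' processing notes, the authors aligned reads to hg19 with Bowtie2 and quantified them with Cufflinks in Partek, and the deposited values are FPKM, 1 per locus and group over the pooled samples. How libraries were scaled against each other and whether strand was used are not given in the sources used here. The numbered samples may be technical or biological replicates, and the table gives no counts, so the number of reads behind each gene's level is not known here. The deposited fold changes, test statistics, p-values and q-values of the authors' own comparison were not used.

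The log2 ratio is log2(siPAX9 FPKM / siNT FPKM) with no pseudocount. The row with the highest mean was taken per symbol. A gene was counted where both levels were above 0 and the higher was at least 1 FPKM, and singled out at 2-fold, the fold of the study's methods. All 10 members, PAX9 and listed genes with at least a 2-fold difference (at most 4 per direction and list) are named, and other names were chosen after their values were seen. The members and lists, role sums and motifs were chosen with earlier results of these data known. Ratios and counts were tested on simulated data. Exons came from a GENCODE annotation on GRCh37, which has the coordinates of hg19, and promoters from RefSeq. Shared 75-base words were sought on both strands. A planned comparison of protein sequences was not made. Python 3.11.15, numpy 2.4.6, pandas 2.3.3 and matplotlib 3.10.9 were used. Alternatives were a fold of 1.5 or 4, a pseudocount of 1 or 0.1, centring on the median locus, summed rows, a minimum of 1 FPKM in both groups, loci with status OK, and other response element cores.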

Additional observations from a re-analysis of the deposited data

How the results depend on the processing

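The count of 3 members at least 2-fold lower became 5 at 1.5-fold, 1 at 4-fold, 1 with a pseudocount of 1 (SLC7A11 at -0.99 and SLC1A4 at -0.83 fell short) and 1 of 8 where both levels had to reach 1 FPKM, since SLC1A4 and SLC43A1 do not. The median log2 ratio of -0.36 became -0.34 with a pseudocount of 1, -0.30 after centring and -0.10 with both levels at 1 FPKM or more. For the other surface transporters, the count of 1 lower became 3 at 1.5-fold and 0 at 4-fold, with a pseudocount of 1 and with both levels at 1 FPKM or more, and that of 1 higher became 0 under the last. Members with a response element core went from 5 to 2 with C at the free base and to 6, SLC43A1 added, with the core shortened to TGATG, which 32.9% of all windows hold. Centring was the only alternative that could change the sign of a member's log2 ratio, and with it SLC3A2 and SLC38A1 of the 10 crossed 0. No member was at least 2-fold higher under any of the 8 settings for levels, and summed rows and status OK loci could not differ, as each member has 1 row with status OK. No paired analysis was possible because the levels are pooled over the samples of each group, and leaving out a sample was not run for the same reason. The number of reads behind each gene's level is not in the table, which matters most for SLC43A1 and SLC1A4, the scarcest of the 10 genes.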

Other observations

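Lists of amino acid transporters inside the cell were described in the same way. Of 8 genes of lysosomal transporters, which move amino acids across the lysosomal membrane, 7 were counted, and all 7 were higher in siPAX9, though none by as much as 2-fold, where 54.7% of the 12831 loci were lower by any amount. Their median log2 ratio was 0.23 and their summed level 60.1 FPKM in siNT and 74.7 FPKM in siPAX9. They included SLC38A9, the arginine sensor of mTORC1 (6.43 and 8.61 FPKM), and SLC38A7, which exports glutamine (6.91 and 10.7 FPKM), both chosen after their values were seen. Of 10 counted mitochondrial carriers, 7 were lower and 3 higher, none by 2-fold, with a median of -0.27. The 3 counted enzymes of branched-chain amino acids, which act on what SLC7A5 and SLC43A1 carry, were all lower within 2-fold, with a median of -0.44.

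Of 31 counted genes that sense amino acids at the lysosome, 29 were within 2-fold and the median log2 ratio was 0.03. SEH1L, of the GATOR2 complex and of the nuclear pore, was at 33.7 FPKM in siNT and 11.7 FPKM in siPAX9, and SESN3, a relative of the leucine sensor SESN2, at 0.347 and 1.37 FPKM. SESN3 reached 1 FPKM in siPAX9 only. Over the 12831 loci, 6.89% were at least 2-fold lower and 7.26% at least 2-fold higher. Glutamine synthetase (GLUL), which makes the amino acid that SLC1A5 imports, was at 165 FPKM in siNT and 302 FPKM in siPAX9 (log2 ratio 0.87, chosen after its value was seen). Among 239 single-symbol loci whose promoter windows hold the core TGATGNAA, 13.8% were at least 2-fold lower and 11.7% at least 2-fold higher in siPAX9, against 6.60% and 5.85% of 8609 loci without it. These shares carry no test, and the loci with and without the core were not matched for level. The shares beyond 2-fold varied with level over all loci. At a mean below 3 FPKM, 11.7% were lower and 19.7% higher by that fold, and at 10 to 30 FPKM 4.23% and 3.07%. A part of the core in these shares cannot be told apart from one of level.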
